A study of Triticum aestivum with 16 samples.

Results

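Tubulin transcripts were examined in mature flag leaves of 8 recombinant inbred lines of bread wheat (Triticum aestivum), named SB15, SB33, SB53, SB80, SB138, SB146, SB165 and SB189. Their parents were the cultivars Seri M82 and Babax, and all were grown in the field with irrigation. Flag leaves were taken 6 to 8 days after anthesis (flowering), and total RNA from 2 field replicates of each line was hybridised to an Affymetrix wheat array, which gave 16 arrays. No line received another treatment, and the series was made to compare genotypes that differ in the metabolism of water soluble carbohydrates. The tubulin genes were those whose symbol or synonym in the array annotation or in RefSeq starts with Tub. They had 10 of the 61290 probe sets on the array and belonged to 6 genes, among 771 genes with a name in the annotation. A probe set is a group of short probes that together give 1 value for a transcript. 8 of the probe sets were for 5 beta tubulin genes and 2 were for the alpha tubulin gene TUBA.

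Tubulins are the building blocks of microtubules. An alpha and a beta tubulin form a dimer, and the dimers line up into hollow filaments that serve in cell division, in transport and, in the cell cortex of plants, in guiding the enzymes that lay down cellulose. Plants hold several genes for each of the subunits, called isotypes, and bread wheat carries near-identical copies of most genes on its A, B and D genomes, so a probe set can take up RNA from more than 1 copy. Tubulin demand is known to be high in dividing and expanding cells, and a flag leaf after flowering has finished expanding.

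The 4 probe sets of the beta tubulin Tubb5 (LOC543261) are named here by the ends of their identifiers, A1_x_at, A1_at, S1_x_at and S1_at, and those of TUBA as S1_x_at and S1_at. Across the 8 lines, A1_x_at of Tubb5 was the tubulin probe set with a line effect, while A1_at, S1_x_at and S1_at of this gene did not pass. On that probe set Tubb5 was lower in SB146 by a log2 difference of -0.64 (SE 0.0833) from the mean of the other 7 lines, and lower in SB15 by -0.61. It was higher in SB80 by 0.54 on the log2 scale. None of the probe sets of tubb1, tubb2, tubb3, Tubb4 and TUBA passed the test. In all, 1 of the 10 tubulin probe sets passed at a limma adjusted p under 0.05, beside 3.5% of the 61115 probe sets tested. Among the 30557 probe sets with the brightest means, 9 were tubulins, of which the same 1 passed, beside 6.31% of these 30557. Of the 80 differences between 1 line and the others, 3 passed, all on A1_x_at. The background for these was 0.414% of all probe sets lower in SB15, 0.429% lower in SB146 and 1.02% higher in SB80. In either direction, the share of all probe sets called was 0.98% in SB15, 0.591% in SB33, 0.928% in SB53, 2.7% in SB80, 1.02% in SB138, 0.99% in SB146, 1.95% in SB165 and 1.27% in SB189. The contrasts share arrays, since each line is also among the others of every other line.

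Values ran on a log2 scale from a floor at 2.25, which 37.7% of all of them shared, up to 16.67. A level on this scale belongs to its own probe set, because probes bind with different strength, so levels of different tubulins were not ranked against each other. Over the brighter probe sets, correlations ran from 0.994 to 0.997 within lines and from 0.979 to 0.992 between them. The green leaf markers in the annotation were strongly expressed. PsbO (OEE1, LOC543291), a subunit of the water-splitting complex of photosystem II, had a mean of 14.83, and PsbP (OEE2, LOC543290), its partner, averaged 14.98 and 13.53 on its probe sets. Fewer cells of a type and less RNA per cell cannot be told apart in whole leaves. RNAs added as poly-A spikes before labelling had their minimum in SB80, at 8.93 ± 0.042 (log2, SD over 2 arrays), and their maximum in SB165, at 10.23 ± 0.14. SB146 had 9.90 ± 0.071 and SB15 had 9.63 ± 0.33. Their part in the results below was not tested.

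**Figure D1:**
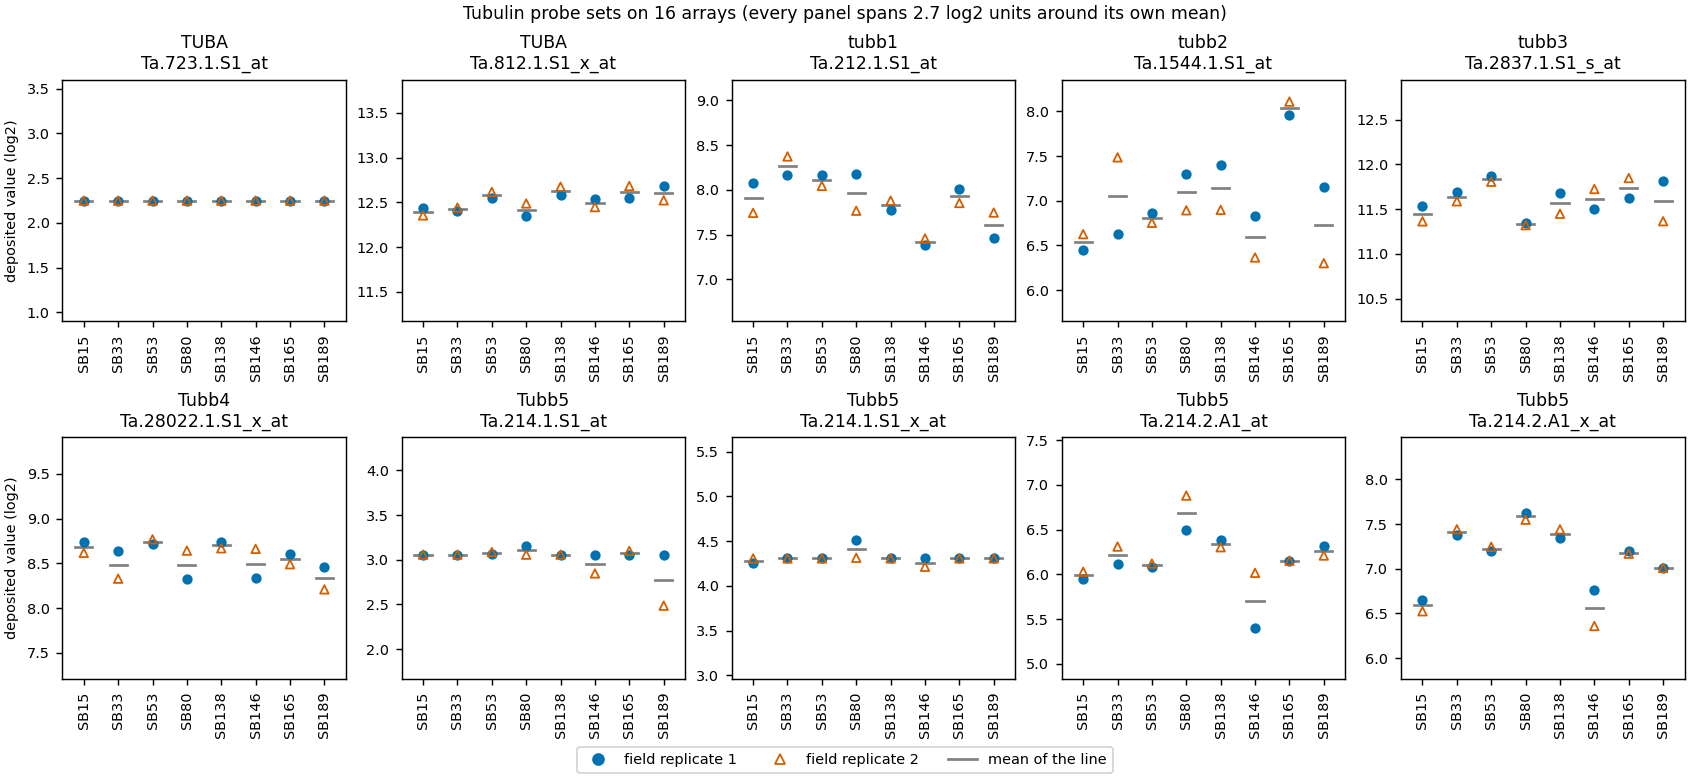
Deposited log2 value (vertical axis) of the 10 tubulin probe sets in each of the 8 lines (horizontal axis), with a filled circle for field replicate 1, an open triangle for field replicate 2 and a bar for the mean of the line. Every panel spans the same height around its own mean, so panels compare spread and not level: S1_at of TUBA is flat at the floor of 2.25, and on A1_x_at of Tubb5 the arrays of SB15 and SB146 lie between 6.36 and 6.77, below the other 12.

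TUBA, the alpha tubulin, was measured by S1_x_at and S1_at, which gave very different signals. The identifiers of these probe sets carry different cluster numbers. Despite their similar endings, they are thus not a pair from the same sequence. On S1_x_at the mean over all arrays was 12.52, 10.27 log2 units above the floor. The probe set S1_at lay at the floor of 2.25 on all 16 arrays and gave no order between lines, so all that follows on TUBA rests on S1_x_at. In replicates 1 and 2, this probe set had 12.44 and 12.35 in SB15, 12.40 and 12.44 in SB33, 12.55 and 12.62 in SB53, 12.34 and 12.49 in SB80, 12.58 and 12.68 in SB138, 12.54 and 12.45 in SB146, 12.55 and 12.68 in SB165, and 12.68 and 12.52 in SB189. The arrays of SB138, SB165, SB189 and SB53 lay at the upper end and those of SB33, SB80 and SB15 at the lower end, and in 5 of the 7 neighbouring places of this order the arrays of both lines overlapped. The line means spanned 0.23 on the log2 scale, a 1.17-fold range, with an SD between the arrays of a line of 0.076. The line effect did not pass (limma adjusted p = 0.382). The 95% intervals of the differences of a line from the others all lay between -0.27 and 0.25.

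The beta tubulin tubb1 (LOC543257) was lowest in SB146 and highest in SB33. In replicates 1 and 2, its probe set had 8.07 and 7.74 in SB15, 8.17 and 8.37 in SB33, 8.17 and 8.04 in SB53, 8.17 and 7.77 in SB80, 7.78 and 7.88 in SB138, 7.38 and 7.46 in SB146, 8.00 and 7.85 in SB165, and 7.46 and 7.75 in SB189. Both arrays of SB146 lay below the other 14, the nearest of which, replicate 1 of SB189, was at 7.46 as well. Between SB146 and the other lines tubb1 had a difference of -0.53 (SE 0.124, log2), which did not pass (limma adjusted p = 0.132). Its line means spanned 0.85 with a spread within lines of 0.17, and the line effect did not pass either (limma adjusted p = 0.18). From SB53 down to SB138 each line overlapped with its neighbour. Both arrays of SB146 lay outside the other 14 on 1.61% of all probe sets tested.

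tubb2 (LOC543258) had the widest range of line means of the tubulins, at 1.50 on the log2 scale, and also the widest spread within lines, at 0.37. In replicates 1 and 2, its probe set had 6.45 and 6.63 in SB15, 6.63 and 7.49 in SB33, 6.87 and 6.75 in SB53, 7.30 and 6.89 in SB80, 7.40 and 6.90 in SB138, 6.83 and 6.37 in SB146, 7.96 and 8.11 in SB165, and 7.16 and 6.30 in SB189. Both arrays of SB165 lay above all others, of which the highest was replicate 2 of SB33 at 7.49. From SB138 down to SB15 the arrays of neighbouring lines overlapped at every step. In SB165 tubb2 was at 8.03 ± 0.11 (SD, n = 2) against 6.85 in the other lines, a difference of 1.18 (SE 0.271), which is 2.27-fold, and it did not pass (limma adjusted p = 0.0817). Both arrays of SB165 lay outside the other 14 on 3.24% of all probe sets. With the test run on the 30557 brighter probe sets alone this difference passed, as it did after subtraction of array medians and without replicate 2 of SB33 or replicate 1 of SB189. The share of probe sets called in SB165 was 6.26% among the brighter ones and 2.84% after subtraction of medians, beside 1.95% without these changes. For sucrose synthase, a control whose 3 prime minus middle signal reflects how intact the RNA was, this difference was 2.75 ± 0.091 (log2, SD, n = 2) in SB165 and 2.25 to 2.62 in the other lines. Over the 8 line means, tubb2 and this control had a correlation of 0.76, given as a description, and its part in the level of tubb2 was not tested. The other tubulin probe sets with a mean at least 1 above the floor had correlations of 0.05 to 0.62 with this control, the highest on Tubb4.

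tubb3 (LOC543473) was measured by a probe set with the suffix s_at, which marks a probe set shared by several transcripts. In replicates 1 and 2 it had 11.53 and 11.36 in SB15, 11.69 and 11.59 in SB33, 11.87 and 11.81 in SB53, 11.35 and 11.32 in SB80, 11.68 and 11.45 in SB138, 11.50 and 11.72 in SB146, 11.63 and 11.85 in SB165, and 11.81 and 11.36 in SB189. SB80 was the lowest line, with both arrays just under the next array at 11.36. The difference of SB80 from the others was -0.30 (SE 0.116, log2) and did not pass (limma adjusted p = 0.292). The line means of tubb3 had a range of 0.50, and the line effect did not pass (limma adjusted p = 0.759). In 6 of 7 neighbouring places the arrays of both lines overlapped.

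Tubb4 (LOC543260) varied least between lines among the beta tubulins with a single probe set. In replicates 1 and 2, its probe set had 8.74 and 8.62 in SB15, 8.64 and 8.33 in SB33, 8.72 and 8.77 in SB53, 8.33 and 8.64 in SB80, 8.74 and 8.67 in SB138, 8.33 and 8.66 in SB146, 8.61 and 8.49 in SB165, and 8.46 and 8.21 in SB189. The SD within lines, over single arrays, was 0.16. That of the line means was 0.14, but each of these is a mean of 2 arrays, so the values are not directly comparable. The range of line means was 0.41, from 8.74 in SB53 to 8.33 in SB189 (limma adjusted p = 0.872). The largest difference of a line from the others was -0.26 in SB189, with a 95% interval from -0.53 to 0.01.

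**Figure D2:**
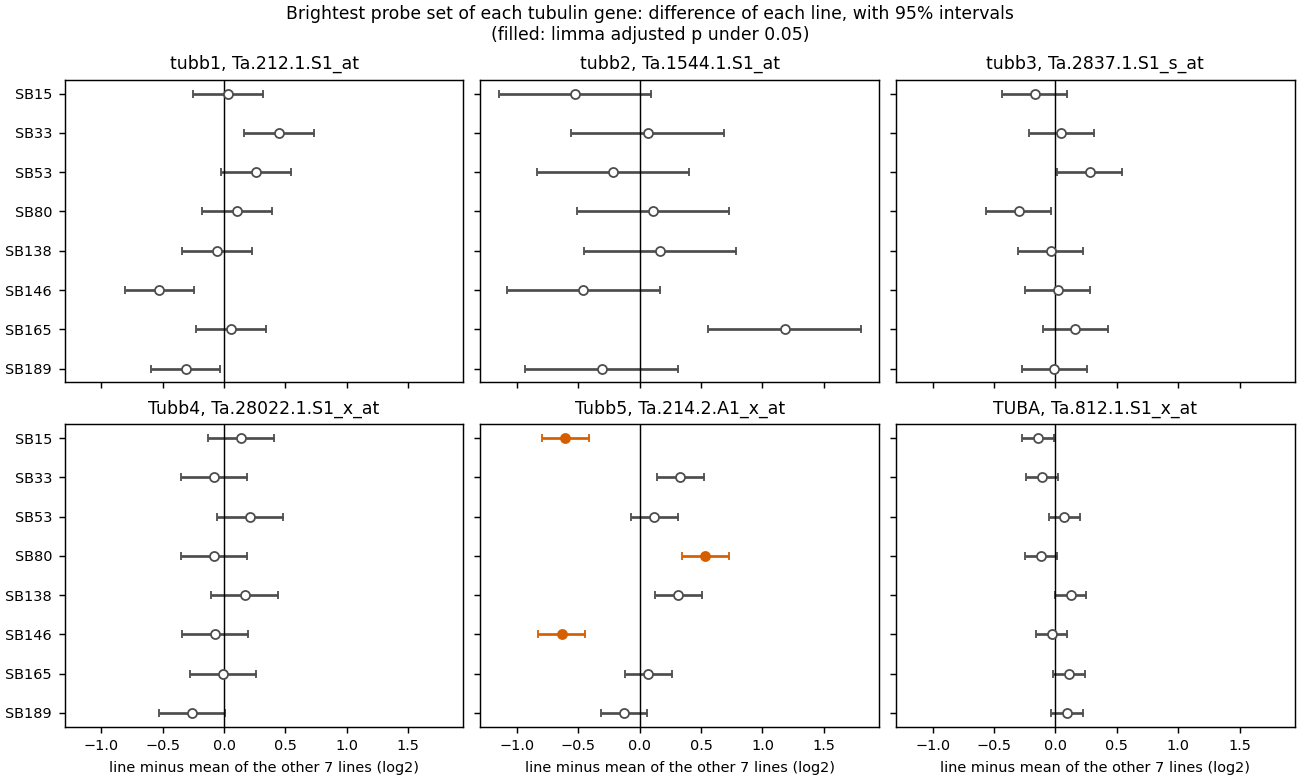
Difference of each line from the mean of the other 7 lines (horizontal axis, log2) on the probe set with the highest mean of each tubulin gene, with bars for the 95% interval from limma and filled points for a limma adjusted p under 0.05. The filled points are SB15, SB80 and SB146 on Tubb5, at -0.61, 0.54 and -0.64, and the open point farthest to the right is tubb2 in SB165 at 1.18.

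The line effect lay on A1_x_at of Tubb5. The suffix x_at marks probes that other transcripts may share. By their identifiers, the probe sets of Tubb5 come in 2 pairs, A1_x_at with A1_at and S1_x_at with S1_at. In replicates 1 and 2, A1_x_at had 6.65 and 6.52 in SB15, 7.38 and 7.44 in SB33, 7.20 and 7.25 in SB53, 7.63 and 7.55 in SB80, 7.35 and 7.44 in SB138, 6.77 and 6.36 in SB146, 7.19 and 7.17 in SB165, and 7.01 and 7.01 in SB189. The 4 arrays of SB15 and SB146 were below all others and overlapped each other. Both arrays of SB80 were above all others, which was the case on 3.47% of probe sets for SB80 in either direction. SB33 and SB138 overlapped, while SB53, SB165 and SB189 followed below them with no overlap between neighbours, so 2 of 7 neighbouring places overlapped.

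On this probe set the line means of Tubb5 ran from 7.59 ± 0.056 (SD, n = 2) in SB80 to 6.56 ± 0.29 in SB146, a range of 1.03 or 2.04-fold. The line effect had a limma adjusted p of 0.00572. Against the other lines, the difference was -0.64 in SB146 (95% interval -0.83 to -0.45, 1.55-fold lower, limma adjusted p = 0.0112). In SB15 it was -0.61 (95% interval -0.80 to -0.42, 1.52-fold lower, limma adjusted p = 0.0143), and in SB80 it was 0.54 (95% interval 0.34 to 0.73, 1.45-fold higher, limma adjusted p = 0.0127). SB33 at 0.33 and SB138 at 0.31 did not pass (limma adjusted p = 0.258 and 0.202). Their 95% intervals, not adjusted, lay above 0, at 0.14 to 0.52 and 0.12 to 0.50. Whether these lines passed turned on SB146, since their calls changed without either of its arrays. SB53, SB165 and SB189 lay within 0.13 of the others. The spread between the arrays of a line was 0.11, and SB146 was the line whose arrays lay farthest apart. The intervals rest on 1 spread pooled over the lines, so that of SB146 does not measure its own spread of 0.29.

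The call in SB15 ended without its replicate 2, where the difference was -0.54 (limma adjusted p = 0.0623), and without line SB80, where it was also -0.54 (limma adjusted p = 0.0526). It ended as well without both SB80 and SB165, at -0.53 (limma adjusted p = 0.116). That in SB80 ended without its replicate 1, at 0.50 (limma adjusted p = 0.071). These differences were close in size to those with all arrays. The call in SB146 held without any 1 array, with differences from -0.84 to -0.43, and ended without both SB80 and SB165, the lines with the lowest and highest spikes, where it was -0.56 (limma adjusted p = 0.0928). The line effect of A1_x_at ended there as well (limma adjusted p = 0.0572), on 12 arrays. Over the 8 line means the correlation with the spikes was -0.415 on A1_x_at, -0.68 on A1_at and -0.72 on S1_x_at of Tubb5, and 0.70 on tubb3, given as a description. SB80, with the lowest spikes, was the highest line on these Tubb5 probe sets and the lowest on tubb3.

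**Figure D3:**
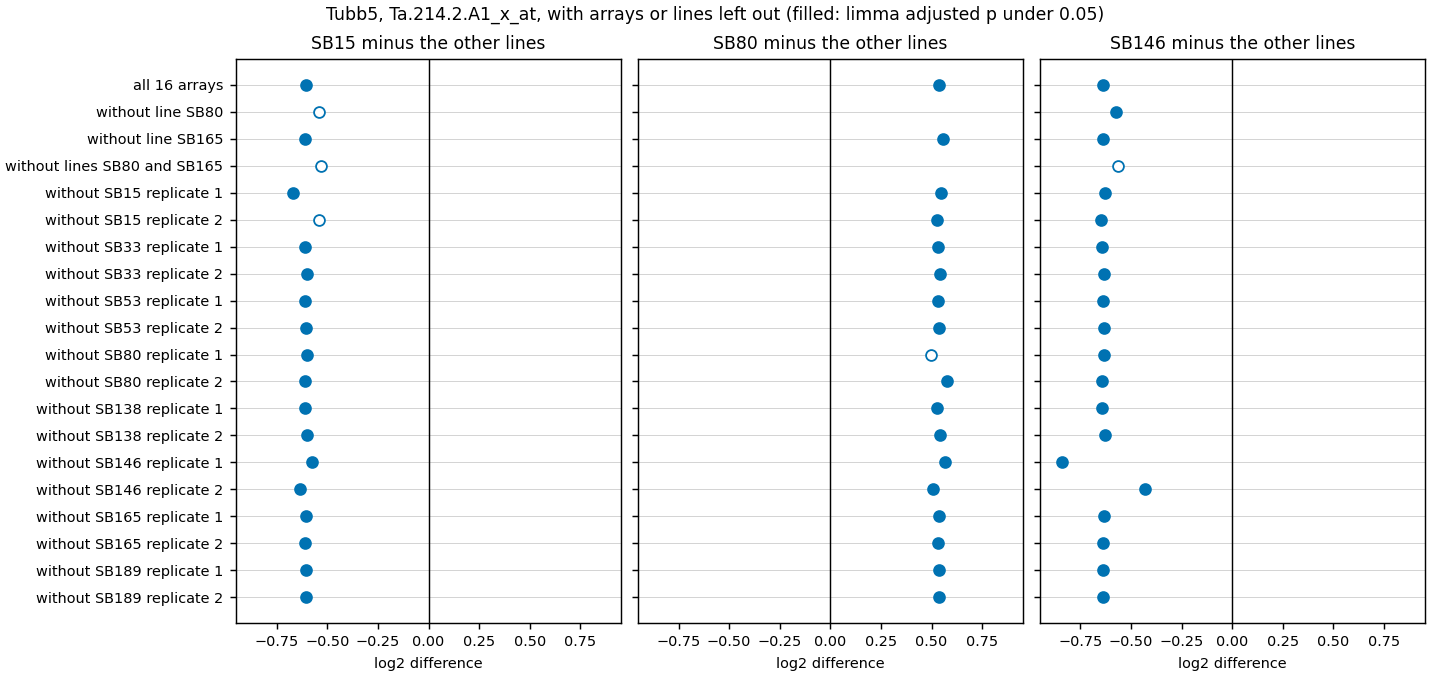
Log2 difference of SB15, SB80 and SB146 from the other lines on A1_x_at of Tubb5 (horizontal axis) with all 16 arrays and with 1 array, 1 line or 2 lines left out (vertical axis). Filled points have a limma adjusted p under 0.05. Points of SB146 run from -0.84 to -0.43, and no point crosses 0.

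The other probe sets of Tubb5 were tested one by one and against each other. A1_at, from the same sequence as the probe set above but with probes not marked as shared, ran from 6.69 ± 0.27 (log2, SD, n = 2) in SB80 to 5.71 ± 0.44 in SB146, a range of 0.98. Its highest and lowest lines were thus those of A1_x_at, with differences from the other lines of 0.58 in SB80 and -0.54 in SB146. These did not pass (limma adjusted p = 0.0906 and 0.194), and neither did its line effect (limma adjusted p = 0.255). Its spread within lines was 0.19, against 0.11 on A1_x_at. In SB15 its difference was -0.22, with a 95% interval from -0.55 to 0.10. The arrays of SB146 ran in opposite order on both probe sets, with 5.39 in replicate 1 and 6.02 in replicate 2 on A1_at, and 6.77 and 6.36 on A1_x_at.

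Whether these probe sets followed different courses over the lines was tested on their difference in each array, with an exact permutation over all 2027025 pairings of the 16 arrays. For A1_x_at minus A1_at, the line means lay between 0.60 in SB15 and 1.20 in SB33, with a spread within lines of 0.29. The exact permutation test, one-sided and adjusted over 3 pairs of probe sets, gave p = 0.527. Without replicate 1 of SB146 the adjusted exact p was 0.038, and without replicate 2 of SB146 it was 0.0377, so this outcome turned on the arrays of SB146, where the difference was 1.37 in replicate 1 and 0.34 in replicate 2.

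The pair from the other sequence was nearly flat. S1_at had the value 3.06 on 10 of 16 arrays and S1_x_at had 4.31 on 12, values that repeated within 1e-06. On S1_x_at the arrays off this value were 4.51 and 4.31 in SB80, 4.21 in replicate 2 of SB146 and 4.25 in replicate 1 of SB15. The arrays above the repeated value were thus of SB80, and those below it of SB146 and SB15, whose other arrays held it. S1_at did not repeat this order. Its arrays above the repeated value were replicate 1 of SB80, replicate 2 of SB165 and both of SB53. Those below were replicate 2 of SB189 at 2.49 and replicate 2 of SB146 at 2.85, while both arrays of SB15 held the repeated value. The line effects of S1_x_at and S1_at did not pass (limma adjusted p = 0.872 for both). The difference between S1_x_at and A1_x_at varied over the lines (exact permutation test, adjusted p = 0.00114), spanning 0.87 between SB146 and SB80 with a spread within lines of 0.10. For S1_x_at and A1_at the adjusted exact p was 0.0938. Since S1_x_at repeated 1 value on 12 of 16 arrays, these tests mostly restate how the other probe set varied over the lines and do not show that the courses differ in direction. The line means of S1_x_at and A1_x_at had a correlation of 0.76.

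**Figure D4:**
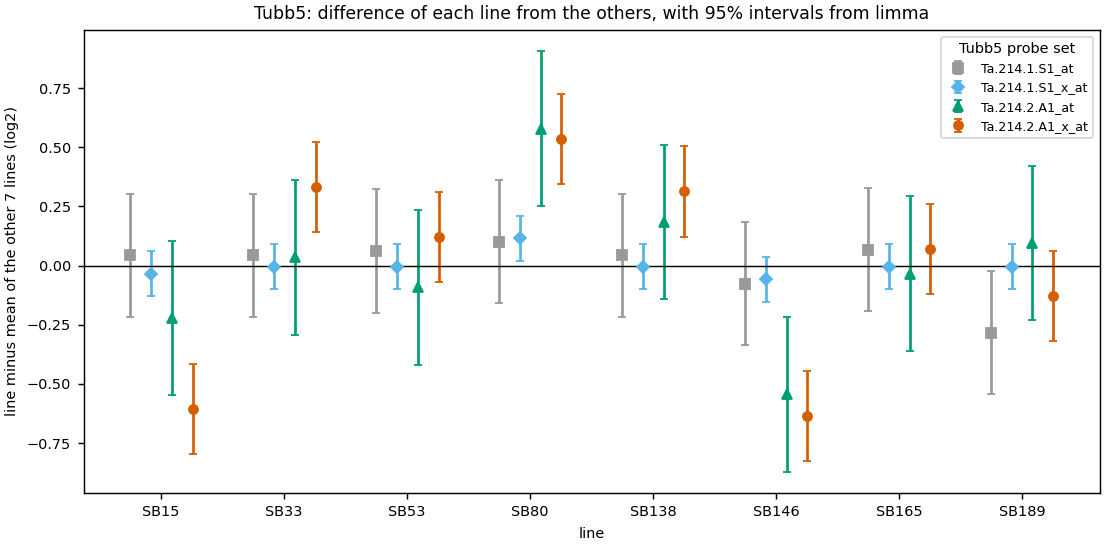
Difference of each line from the mean of the other 7 lines (vertical axis, log2) on the 4 probe sets of Tubb5, with bars for the 95% interval from limma. A1_x_at and A1_at are highest in SB80, at 0.54 and 0.58, and lowest in SB146, at -0.64 and -0.54, while S1_x_at and S1_at stay near 0 except SB189 on S1_at.

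Over all 10 probe sets, both arrays of SB80 lay outside the other 14 on 4. Of these, 3 were upward and belong to 1 gene, Tubb5, and 1, of tubb3, was downward. S1_x_at of Tubb5 is counted there by a small step, since replicate 2 of SB80 had 4.313 beside 4.306 on the 12 arrays with the repeated value. SB146 and SB165 had 1 such probe set each, tubb1 downward and tubb2 upward, and the other 5 lines had none. Over all probe sets tested, this was so on 1.25% in SB15, 0.766% in SB33, 1.13% in SB53, 3.47% in SB80, 1.89% in SB138, 1.61% in SB146, 3.24% in SB165 and 2.21% in SB189. Of the 6 cases among the tubulins, in SB80, SB146 and SB165, only that of SB80 on A1_x_at of Tubb5 passed the test. Whether isotypes differ in which line stands apart was not tested. The median range of line means was 0.46 over the 10 tubulin probe sets, beside 0.16 over all tested. Over the 9 tubulin probe sets among the 30557 brighter ones it was 0.50, beside 0.38 for these 30557.

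The courses of the isotypes over the lines were set side by side by correlation. Among the 8 probe sets with a mean at least 1 above the floor, the correlations over 8 line means ran from -0.50 to 0.62 between genes, with a median of 0.16 over 25 pairs. The lowest was that of tubb3 with S1_x_at of Tubb5, which repeated 1 value on most arrays, and tubb3 with A1_at of Tubb5 had -0.45. Tubb5 enters these pairs with several probe sets, so the pairs are not separate comparisons of isotypes. Within Tubb5, A1_at and A1_x_at, the pair in which both varied, had a correlation of 0.85. The other pairs, at 0.76 and 0.92, involve S1_x_at, whose mean was the same in 5 of 8 lines, so they rest on SB80, SB15 and SB146. The highest between genes was that of tubb1 with A1_x_at of Tubb5 at 0.62, followed by TUBA with tubb3 at 0.61. These are descriptions over lines that share arrays and normalization.

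Probe sets whose identifiers carry the same cluster number as a tubulin were looked up after the values had been seen. The cluster of S1_x_at of TUBA held 4 more, of which 3 have no gene in the annotation and 1 is annotated to LOC100049037. Their means lay between 8.95 and 10.19. The one that most followed S1_x_at over the lines had a correlation of 0.91. Its lowest adjusted p was in SB15, with a difference of -0.27 from the other lines (limma adjusted p = 0.0732). The one annotated to LOC100049037 did so least, at 0.18. The cluster of Tubb4 held 3 more, without a gene in the annotation. Of these, 1 had a mean of 11.07 and a correlation of 0.91 with Tubb4, 1 had 10.50 and 0.62, and 1 lay near the floor at 2.26. None of these 7 had a line effect, with limma adjusted p-values from 0.0593 to 0.944.

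Among annotated genes outside the tubulins, those most like A1_x_at over the 8 line means were searched among 387 genes. They were LOC606310 (correlation 0.91), LOC100125700 (0.90), LOC542782 (0.90), LOC542884 (0.82) and LOC780664 (0.77). All had their lowest mean in SB146, as A1_x_at did, which the choice by correlation largely fixes. LOC542782 had a range of 1.56, from 8.07 in SB138 to 6.52 in SB146 (limma adjusted p = 0.0342 for the line effect), and the others did not pass (limma adjusted p = 0.872 to 0.888). A line effect in 1 of 5 is to be read beside 3.5% of all probe sets and the search over 387 genes, and nothing is drawn from it. The annotation gives these genes only a locus number.

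Other genes of the cytoskeleton and of growth were few in the annotation. Profilin (PRO1, LOC543315), a protein that binds actin monomers, was the only member of the actin list, with means of 13.37 and 14.31 on its 2 probe sets and ranges of 0.27 and 0.16, and it also served as the anther and pollen marker. XTH, a xyloglucan-modifying enzyme of the cell wall, lay at the floor with a mean of 2.25. No annotated gene matched the list of microtubule partners such as kinesins and katanins, nor that of reference genes, nor the grain and endosperm markers, which does not show that their genes were absent from the array.

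Histones, which package DNA and are made in dividing cells, had 18 probe sets of 5 genes of the H2A and H2B families. None of the 18 had a line effect, and none was called in any line, beside 3.5% for the line effect. Their means ran from 2.26 to 7.33, and most lay near the floor, which limits what missing calls and small differences show. The widest ranges were those of H2A-3 (LOC732713), at 1.16 around a mean of 3.75, and wcH2B-8 (LOC543184), at 1.00 around 6.83, followed by H2A-9 (LOC732714) at 0.50 and H2A-2 (LOC732712) at 0.18. H2A-9 and H2A-2 lay near the floor, at means of 3.05 and 2.28. The brighter probe set of H2A-3, with a mean of 7.33, had a range of 0.26. In SB146 the median difference of the histone probe sets from the other lines was -0.03 on the log2 scale.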

How the data were processed

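The deposited log2 values of 16 arrays were used as they were. Per the submitters' processing notes, the authors used RMA and GCRMA, which correct background, normalize arrays and summarise probe sets; which of them made the table, and their versions, are not given in the sources used here. Symbols came from the platform annotation and RefSeq (IWGSC CS RefSeq v2.1), through gene identifiers. Names were matched by symbol and synonym, as no descriptions were at hand, and sequences were not analysed here. Of 61290 probe sets, 175 controls were left out. With limma 3.58.1 in R 4.3.3, a moderated F over the 8 lines and each line against the mean of the others were fitted on all 61115, with Benjamini-Hochberg adjustment over all of them, in each contrast, and a threshold of 0.05. There were 8 residual and 0.39 prior degrees of freedom. The number of arrays limits the precision. The exact test compared the squared differences within lines with those of all pairings of arrays.

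Named with every array are probe sets with a call and the one with the highest mean of each gene. For likeness, 5 genes were taken with a mean at least 1 above the floor and a range of at least 0.3, and up to 4 members of each gene list with the widest ranges. The members and lists were chosen with earlier results of these data known. The steps were run on simulated data with normal noise, which did not copy the floor or the repeated values of these arrays. The outcome is not given here. Alternatives covered the filter on dim probe sets, normalization, the prior, array weights, the field replicate as a block, the adjustment, and leaving out arrays or lines.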

Additional observations from a re-analysis of the deposited data

How the results depend on the processing

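The line effect of A1_x_at of Tubb5 kept its side of the threshold under all alternatives run (limma adjusted p from 9.19e-05) except without both SB80 and SB165, where the number of tubulin probe sets with a line effect was 0. With the field replicate as a block the number was 1, as without it, and the block changed no call of a tubulin. In the main fit the replicate numbers were not taken to pair the arrays. Over 28 pairs of lines, deviations of same-numbered arrays correlated at a median of 0.088, from -0.18 to 0.33, above 0.1 in 12. After subtraction of array medians it was 2, since A1_at was added, and without 1 array it ran from 1 to 2. Against the other lines, the number of tubulin probe sets that differed in SB80 was 2 among the brighter 30557 probe sets, after quantile normalization and after subtraction of medians, each time with A1_at of Tubb5 added, and ran from 0 to 2 without 1 array. In SB146 it was 2 among the brighter 30557 probe sets (tubb1 added) and after subtraction of medians (A1_at added), 0 without SB80 and SB165, and 1 to 2 without 1 array. In SB15 it was 0 without SB80 and without both lines, and 0 to 1 without 1 array. In SB165 it was 1, tubb2, among the brighter 30557 probe sets and after subtraction of medians, and 0 to 1 without 1 array. It also ran from 0 to 1 in SB33, SB138 and SB189 without 1 array, and stayed at 0 in SB53. Adjusted over the brighter 30557 alone, 11% of them passed for the line effect, 7.76% in SB80, 3.14% in SB146 and 6.26% in SB165. After subtraction of medians these shares, now of all probe sets, were 5.8%, 4.17%, 1.59% and 2.84%, and after quantile normalization SB80 had 2.88%. Without these changes they were 3.5%, 2.7%, 0.99% and 1.95%. A line that is left out gives no value of its own. Apart from the array weights, every fit assumes that all lines vary alike on a probe set, also a line with 1 array left. The adjusted exact p of S1_x_at against A1_at was 0.023 after quantile normalization and 0.0062 to 0.26 without 1 array, passing without replicate 1 of SB80 and without replicate 2 of SB146. That of A1_at against A1_x_at ran from 0.0377 to 0.755 without 1 array. That of S1_x_at against A1_x_at stayed under the threshold, from 0.000115 to 0.0075. The cause of these changes was not tested, and some settings also differed in the number of arrays or of probe sets adjusted for. 2 arrays per line and values that repeat near the floor limit what can be seen on S1_at of TUBA and on S1_at and S1_x_at of Tubb5.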
